A study of Mus musculus with 13 samples.

Results

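The genes described here are Trp53, which encodes the transcription factor p53, and 9 genes that p53 is known to switch on: Cdkn1a, Mdm2, Ccng1, Bbc3, Bax, Phlda3, Zmat3, Sesn1 and Trp53inp1. They were chosen by symbol and are 10 of the 54532 genes of the deposited count table. These genes and the gene lists set beside them were chosen with earlier results of these data known. The 10 genes were read in Yumm1.7 cells, a mouse melanoma line that carries an activating Braf mutation and has lost Cdkn2a, while its Trp53 gene was not deleted in making the line. The labels give the genotype as WT for every library.

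Each of 13 libraries stands for 1 condition. Total RNA was sequenced after DMSO (the solvent control), ADAR1i-124 (an inhibitor of the RNA editing enzyme ADAR1, at 10 μM for 12 h), 5-Aza-CdR (5-AZA-CdR in the sample labels, an inhibitor of DNA methylation, at 1 μM for 72 h) and the combination. RNA was also precipitated with J2, an antibody to double-stranded RNA, or with Z22, an antibody to left-handed Z-form nucleic acid, after each of the same 4 treatments, and once with IgG as the control antibody. The labels do not give the treatment of cells used with IgG. For precipitates of the combination they also leave out how much ADAR1i-124 was used. The study describes the combination as 5-Aza-CdR first and then ADAR1i-124, with more than 1 dose of ADAR1i-124 in use, so the dose behind those libraries is not settled here.

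p53 is held low in unstressed cells because Mdm2, a ubiquitin ligase and itself a p53 target, marks it for degradation. Under DNA damage or other stress the p53 protein escapes Mdm2 and binds DNA as a tetramer, so the messenger RNA of Trp53 often says little about the activity of the protein, and the RNA of its targets is read in its place. The targets fall into feedback genes (Mdm2, Ccng1), a cell cycle inhibitor (Cdkn1a), genes of cell death (Bax, Bbc3, Phlda3) and genes of stress adaptation and RNA control (Sesn1, Zmat3, Trp53inp1). Loss of Cdkn2a removes p19Arf, a protein that restrains Mdm2.

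Because p53 acts through a DNA element of a pair of 10-base sites, the 3000 bases on either side of each gene start were searched for the p53 consensus without a spacer, allowing at most 2 mismatches of 20 letters while keeping the C and G at the core of both sites. The consensus reads the same on both strands, so a scan of 1 strand covers both. A match was found near 4 of the 10 genes and near 5.91% of 21938 protein-coding genes. With at most 1 mismatch, 3 of the 10 genes and 0.957% of protein-coding genes had a match. The matches near these genes are shown because they are the closest fits to the p53 element beside these genes. Each is given in the direction of the gene, with the matched 20 bases in capitals and 5 bases of flank on each side in lower case. The sequences come from RefSeq's build GRCm38.p6 and distances are from the gene start of GENCODE M21 to the middle of the match.
Cdkn1a, upstream: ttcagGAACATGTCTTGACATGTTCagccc
Ccng1, upstream: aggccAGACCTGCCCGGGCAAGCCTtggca
Ccng1, intron: ccggaACGCAAGCCCGGGCTAGTCTgcgcc
Bax, untranslated exon: cccccGGGCAGGCCCGGGCTTGTCGctggc
Zmat3, exon: gtgagAAACAAGCCCAGGCATGTCTtggga

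The Cdkn1a match lay at chr17:29090928-29090947 on the plus strand, 39 bases upstream of the gene start, with 1 mismatch. RefSeq lists 2 starts for Cdkn1a, and the match lay 42 and 2832 bases upstream of them. The Ccng1 matches, on the minus strand, lay at chr11:40755462-40755481, 161 bases upstream of the start, and at chr11:40754936-40754955, in an intron 365 bases downstream, with 1 mismatch each. The Bax match lay at chr7:45466574-45466593 on the minus strand, in the untranslated part of an exon 314 bases downstream of the start, with 2 mismatches. The Zmat3 match, at chr3:32364331-32364350 on the minus strand, had no mismatch and lay 1673 bases downstream of the start in an exon of a noncoding transcript model. No match was found in this window for Trp53, Mdm2, Bbc3, Phlda3, Sesn1 or Trp53inp1 with these letters, and binding of p53 was not measured here.

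Counts per gene summed to between 8167960 and 34571822 in the 12 libraries used. The total RNA library of the combination summed to 1245894 and was left out of every comparison, because its counts followed the gene on the other strand. Over 16880 genes with a gene on the opposite strand, Spearman's rho with the DMSO counts was 0.68 for the opposite gene and 0.23 for the gene itself, and the 10 genes had 0 to 32 counts there. Of 8 melanocyte lineage markers only Mitf reached a mean of 1 CPM (counts scaled to a table total of 1000000), with Dct, Tyr and Tyrp1 at or near 0, and no leukocyte marker of 6 reached it. Of 4 fibroblast markers, Pdgfra, Col1a1 and Dcn reached it, and the summed level of the list ran from 4.58 to 325 CPM, highest in total RNA with 5-Aza-CdR. Of 4 endothelial markers only Cdh5 reached it (summed level 3.52 to 83.2 CPM) and of 4 keratinocyte markers only Krt10 (0.573 to 2.61 CPM). Of the 6 leukocyte markers, 3 had 1 CPM or more in at least 1 library used. Lyz2 and Ptprc did so in total RNA with 5-Aza-CdR, at 2.43 and 1.21 CPM, beside 0 counts with DMSO. Cdh5 had 81.1 CPM in total RNA with 5-Aza-CdR and 3.70 CPM with DMSO. The part of these levels in the results was not tested. Cdkn2a had 0.131 to 2.21 CPM across the libraries, while Braf had 115 CPM in total RNA with DMSO. Adar stood at 233 CPM with DMSO, 58.9 with ADAR1i-124 and 198 with 5-Aza-CdR. Dnmt1, which encodes the enzyme that 5-Aza-CdR traps on DNA, stood at 334, 249 and 165 CPM in the same order.

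With 1 library per condition no difference below has a replicate check and none was tested. Differences are log2 ratios of CPM + 0.5, which understate the change of low genes. The intervals given are 95% intervals of the count ratio (Clopper-Pearson) or of a level (Poisson), and since the reads carry no molecular identifiers they cover counting error only. A gene is called past 2-fold when its log2 ratio is beyond 1 in either direction, and the share of all genes past that line, counted where the mean level was 1 CPM or more, is the background against which the 10 genes are read. All 10 genes passed that filter in every comparison. A level of RNA in a culture cannot tell fewer cells that express a gene from less RNA per cell.

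Trp53 itself, on chromosome 11 (GRCm38, 69580359 to 69591873, plus strand), was measured at 272 CPM in total RNA with DMSO, 292 CPM with ADAR1i-124 and 167 CPM with 5-Aza-CdR. The ADAR1i-124 library was 0.11 higher on the log2 scale (0.05 to 0.16), and the 5-Aza-CdR library 0.70 lower (log2 ratio -0.70, -0.76 to -0.65). The Trp53 messenger RNA was thus lowest of the 3 in the 5-Aza-CdR library. Of its 9 targets, Cdkn1a, Mdm2, Phlda3 and Trp53inp1 were at their highest of the 3 in that library, Ccng1, Bax and Bbc3 with ADAR1i-124 and Sesn1 with DMSO, while Zmat3 was level between DMSO and 5-Aza-CdR within counting error. For Bbc3 the ADAR1i-124 and 5-Aza-CdR levels of 5.11 and 4.60 CPM lay close together. Its processed pseudogene Trp53-ps drew 2 to 23 counts per library, against 517 to 5773 counts for Trp53. How reads shared with the pseudogene were assigned is not given in the sources used here. The relatives Trp63 and Trp73, which bind like elements, had 0 to 4 counts in each library.

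The p53 feedback genes were among the most abundant of the 10. Mdm2 (chromosome 10, 117688875 to 117710758, minus strand) stood at 304 CPM with DMSO, 309 with ADAR1i-124 and 423 with 5-Aza-CdR. Its log2 ratio was 0.02 (-0.03 to 0.08) for ADAR1i-124, an interval that includes no difference, and 0.48 (0.43 to 0.52) for 5-Aza-CdR. Ccng1, which encodes cyclin G1 (chromosome 11, 40748552 to 40755311, minus strand), stood at 411, 471 and 452 CPM in the same order, with log2 ratios of 0.20 (0.15 to 0.24) and 0.14 (0.10 to 0.18). Neither feedback gene was past 2-fold with either compound.

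Cdkn1a encodes p21, the inhibitor of cyclin-dependent kinases through which p53 stops the cell cycle (chromosome 17, 29090976 to 29100727, plus strand). It stood at 202 CPM with DMSO, 274 CPM with ADAR1i-124 and 549 CPM with 5-Aza-CdR. Both compounds lay above DMSO by more than counting error, with log2 ratios of 0.44 (0.38 to 0.51) and 1.44 (1.39 to 1.50), and only 5-Aza-CdR was past 2-fold. A provisional gene model on the other strand, AC167363.2, overlaps 273 exonic bases of Cdkn1a. The strand setting of the counting is not given in the sources used here.

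The genes of cell death differed among themselves. Bax, which opens the mitochondrial outer membrane (chromosome 7, 45461697 to 45466898, minus strand), stood at 51.9, 64.6 and 54.0 CPM with DMSO, ADAR1i-124 and 5-Aza-CdR. Its log2 ratio was 0.31 (0.19 to 0.44) for ADAR1i-124 and 0.06 (-0.06 to 0.17) for 5-Aza-CdR, where the sign turned under other scalings. Bax was the steadiest of the 10 across all 12 libraries, with the highest level 1.94 times the lowest. A protein-coding model on the same strand, Gm45808, overlaps 192 exonic bases of Bax and was listed with 0 counts in every library. Bbc3, which encodes the BH3-only protein PUMA (chromosome 7, 16308393 to 16318205, plus strand), was the rarest by CPM. It stood at 2.82 CPM (48 counts) with DMSO, 5.11 CPM (90 counts) with ADAR1i-124 and 4.60 CPM (159 counts) with 5-Aza-CdR. Its log2 ratios of 0.76 (0.34 to 1.39) and 0.62 (0.23 to 1.20) have wide counting intervals that span the 2-fold line. Phlda3, which blocks the survival kinase Akt at the membrane (chromosome 1, 135766119 to 135769136, plus strand), stood at 30.6, 57.4 and 70.8 CPM. It was the gene that stood furthest above DMSO with ADAR1i-124, at 0.90 (0.76 to 1.07), and was past 2-fold with 5-Aza-CdR at 1.20 (1.08 to 1.35).

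The stress genes included the lower values. Sesn1 encodes sestrin 1, an antioxidant protein and inhibitor of mTORC1 signalling (chromosome 10, 41809935 to 41908424, plus strand), and stood at 21.2 CPM with DMSO, 5.96 CPM with ADAR1i-124 and 8.42 CPM with 5-Aza-CdR. Sesn1 was the only one of the 10 past 2-fold in the lower direction with either compound, with log2 ratios of -1.75 (-2.16 to -1.51) and -1.28 (-1.56 to -1.10). Trp53inp1, a nuclear protein that also acts in autophagy (chromosome 4, 11156431 to 11174379, plus strand), stood at 87.7 CPM with DMSO, 49.4 CPM with ADAR1i-124 and 160 CPM with 5-Aza-CdR. The compounds lay on opposite sides of DMSO for Trp53inp1, at -0.82 (-0.95 to -0.71) and 0.86 (0.78 to 0.95). Zmat3, an RNA-binding zinc finger protein (chromosome 3, 32334792 to 32366014, minus strand), stood at 256, 215 and 260 CPM, with log2 ratios of -0.25 (-0.31 to -0.19) for ADAR1i-124 and 0.02 (-0.03 to 0.08) for 5-Aza-CdR. The last sign turned under other scalings.

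With ADAR1i-124, then, 1 of the 10 genes (Sesn1) was lower past 2-fold and none was higher, where 16.4% of 13693 genes were past 2-fold in either direction, 7.71% of them higher and 8.70% lower. The median of the 10 was 0.15, beside -0.09 over all genes. With 5-Aza-CdR, 2 (Cdkn1a and Phlda3) were higher and 1 (Sesn1) was lower, where 26.0% of 14391 genes were past 2-fold, 17.0% higher and 8.96% lower. The median of the 10 was 0.31, beside 0.06 over all genes. In both comparisons the counts past 2-fold were close to what the background share gives for 10 genes. The treatments differed in length as well as in compound, and both comparisons share the DMSO library.

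**Figure D1:**
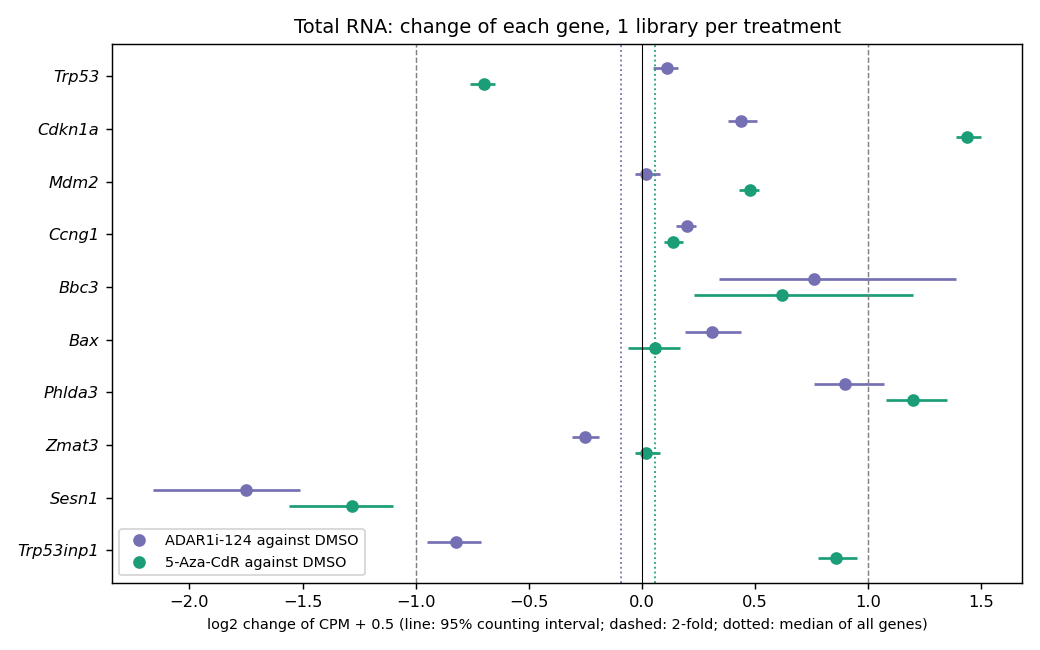
Log2 change of CPM + 0.5 against DMSO in total RNA (horizontal axis) for each of the 10 genes (vertical axis), with ADAR1i-124 and 5-Aza-CdR in separate colours, 95% counting intervals as lines, the 2-fold line dashed and the median of all genes dotted. Cdkn1a at 1.44 and Phlda3 at 1.20 with 5-Aza-CdR lie beyond the upper 2-fold line, and Sesn1 lies beyond the lower line with both compounds, at -1.75 and -1.28.

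Corrected for the length of the annotated exons, the order of the 10 genes in total RNA differed between the treatments. With DMSO, Ccng1 led at 117 CPM per kb, followed by Trp53 at 67.2, Mdm2 at 59.9 and Cdkn1a at 56.9, and Sesn1 (5.31) and Bbc3 (1.33) came last. With ADAR1i-124, Cdkn1a took the second place at 77.3 CPM per kb behind Ccng1 at 134. With 5-Aza-CdR, Cdkn1a led at 155 CPM per kb, ahead of Ccng1 at 129, and Trp53 moved to the fifth place at 41.3, below Phlda3 at 45.4. Sesn1 came last with ADAR1i-124 (1.50, Bbc3 at 2.41) and with 5-Aza-CdR (2.11, Bbc3 at 2.17).

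Among 43 other genes known as p53 targets, 40 averaged 1 CPM or more in the ADAR1i-124 comparison of total RNA, of which 6 were higher and 3 lower past 2-fold, beside 7.71% and 8.70% of all genes. Their median of -0.01 lay near that of all genes, -0.09. The polo-like kinase gene Plk3 went from 30.2 to 153 CPM (log2 2.32, 2.21 to 2.48) and its relative Plk2 from 156 to 384 CPM (1.30, 1.23 to 1.36). Ddb2, a sensor of ultraviolet damage, went from 4.11 to 14.9 CPM (1.74, 1.47 to 2.26), Sfn, the 14-3-3 protein that holds cells in G2, from 3 to 9.54 CPM, and Trp53i13 from 1.06 to 3.75 CPM. In the lower direction, Ddit4, an inhibitor of mTORC1, went from 59.9 to 19.9 CPM (-1.57, -1.77 to -1.42), Casp1, the inflammatory caspase, from 14.1 to 4.82 CPM, and Ptprv from 36 to 2 counts. The 40 genes split evenly, with 20 above and 20 below DMSO.

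In total RNA with 5-Aza-CdR, 41 of the 43 other targets averaged 1 CPM or more, of which 12 were higher and 1 lower past 2-fold, beside 17.0% and 8.96% of all genes. Their median was 0.46, beside 0.06 over all genes. Cd80, a costimulatory ligand for T cells, went from 5.64 to 51.4 CPM (log2 3.08, 2.89 to 3.50). Fas, the death receptor, went from 2.23 to 20.1 CPM (2.92), and Pmaip1, which encodes the BH3-only protein NOXA, from 17.6 to 55.0 CPM (1.61, 1.46 to 1.82). The cytokine gene Lif went from 41.6 to 190 CPM (2.18, 2.08 to 2.31), and Gdf15, a stress cytokine gene, from 3 to 147 counts, a log2 count ratio between 3.02 and 6.89 by its counting interval. Dram1, an autophagy gene, went from 6.46 to 22 CPM, Plk3 from 30.2 to 87.0 CPM and Trp53i13 from 1.06 to 5.50 CPM. The lower gene was Rps27l, at 161 CPM with DMSO and 79.2 CPM with 5-Aza-CdR, named here after its values were seen.

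In total RNA, regulators and partners of p53 had no member higher past 2-fold with either compound. Of 19 regulators and partners described with ADAR1i-124, none was past 2-fold, with 7 above and 12 below DMSO and a median of -0.24 beside -0.09 over all genes. Of 20 described with 5-Aza-CdR, 5 were lower and none higher past 2-fold, beside 8.96% and 17.0% of all genes, with a median of -0.32 beside 0.06. The 5 were the damage kinases Atm (144 to 70.9 CPM) and Atr (95.4 to 45.4 CPM), the checkpoint kinases Chek1 (33.0 to 12.9 CPM) and Chek2 (18.7 to 5.84 CPM), and the deacetylase Sirt1 (55.0 to 21.1 CPM). These 4 kinases, which signal DNA damage to p53, were lower in the same library in which Cdkn1a was at its highest. Kinase activity was not measured here, and a link between these levels was not tested.

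Genes that p53 lowers through p21 and the DREAM repressor complex showed the largest difference of the p53-related lists in total RNA with 5-Aza-CdR. With ADAR1i-124 none of 18 was past 2-fold, and their median was -0.32 beside -0.09 over all genes. With 5-Aza-CdR 17 of 18 were lower past 2-fold, beside 8.96% of all genes, with a median of -2.66 beside 0.06 over all genes. The cyclin genes Ccnb1 (189 to 13.3 CPM, log2 -3.77), Ccnb2 (90.9 to 5.96 CPM, -3.82) and Ccna2 (228 to 20.3 CPM, -3.45) were the lowest with Cdc25c (37.2 to 2.52 CPM, -3.64) and Cdc20 (84.3 to 6.97 CPM, -3.51). Mki67, the proliferation marker, went from 895 to 86.6 CPM (-3.36), Bub1 from 102 to 11 CPM and Cdk1 from 224 to 33.0 CPM. The exception was E2f1, named after its values were seen, at 32.4 CPM with DMSO and 53.6 CPM with 5-Aza-CdR. The share of p53 in these levels was not tested.

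The BCL2 family, whose members oppose or assist Bax, had 8 of 11 genes that averaged 1 CPM or more in each comparison of total RNA. In total RNA with ADAR1i-124 only Bmf was past 2-fold, lower, where 8.70% of all genes were lower, with 50 counts in the DMSO library and 1 count with ADAR1i-124, a log2 count ratio between -11.03 and -3.15. With 5-Aza-CdR, the BH3-only genes Bcl2l11 (31.1 to 102 CPM, log2 1.69) and Bmf (2.94 to 13 CPM, 1.97) were higher and the survival gene Bcl2 (29 to 14 CPM, -1.02) was lower, beside 17.0% of all genes higher and 8.96% lower. Bmf therefore lay on opposite sides of DMSO with the 2 compounds in total RNA.

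**Figure D2:**
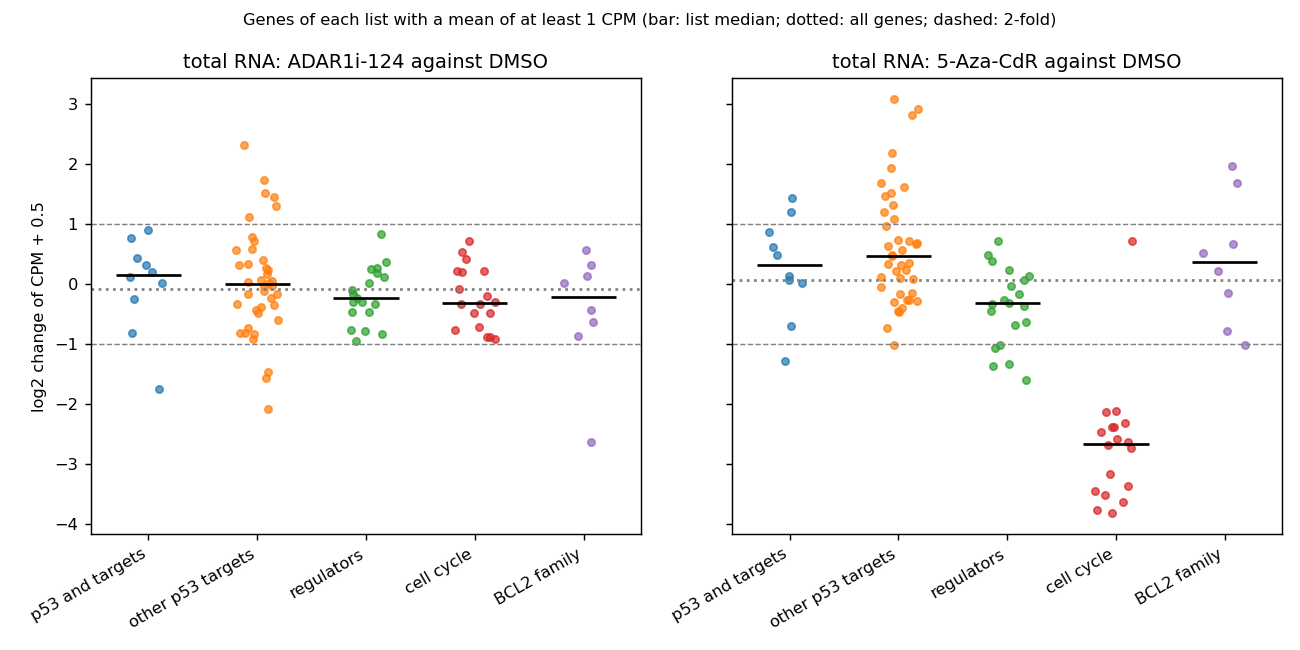
Log2 change of CPM + 0.5 against DMSO in total RNA (vertical axis) for the 10 genes and the gene lists around them (horizontal axis), each point a gene that averaged 1 CPM or more, 1 panel per compound, with a bar at each list's median, the 2-fold line dashed and the median of all genes dotted. With 5-Aza-CdR 17 of 18 cell cycle genes lie below the lower 2-fold line around a median of -2.66, while with ADAR1i-124 none of the 18 does.

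Before the precipitated libraries are compared, it has to be stated that the precipitates labelled DMSO stood apart from total RNA labelled DMSO. The median of the 18 cell cycle genes was 96.4 CPM in total RNA with DMSO, 98.0 with ADAR1i-124 and 14.8 with 5-Aza-CdR. In the J2 libraries it was 24 CPM for the one labelled DMSO, 105 for ADAR1i-124, 28.2 for 5-Aza-CdR and 24 for the combination, and in the Z22 libraries 22.2, 93.5, 53.1 and 10.8 CPM in the same order. The IgG library had 105 CPM. Of the 18 genes, 17 were lower past 2-fold in the J2 library labelled DMSO than in total RNA labelled DMSO, beside 17.3% of all genes. The ribosomal repeat gene Gm42418 took 34.9% of all counts in the Z22 library labelled DMSO. Its share was between 10.6% and 15.8% for the rest of the Z22 libraries, between 15.8% and 18.9% with J2 and 14.2% with IgG. The part of these differences in the results below was not tested, and the counts of the 10 genes against a DMSO precipitate are therefore also given with the IgG library as the reference, a choice made after the data were seen. A ratio to IgG differs in antibody, and the treatment of the IgG cells is not labelled. It is thus another quantity than a ratio to DMSO and does not isolate the treatment.

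**Figure D3:**
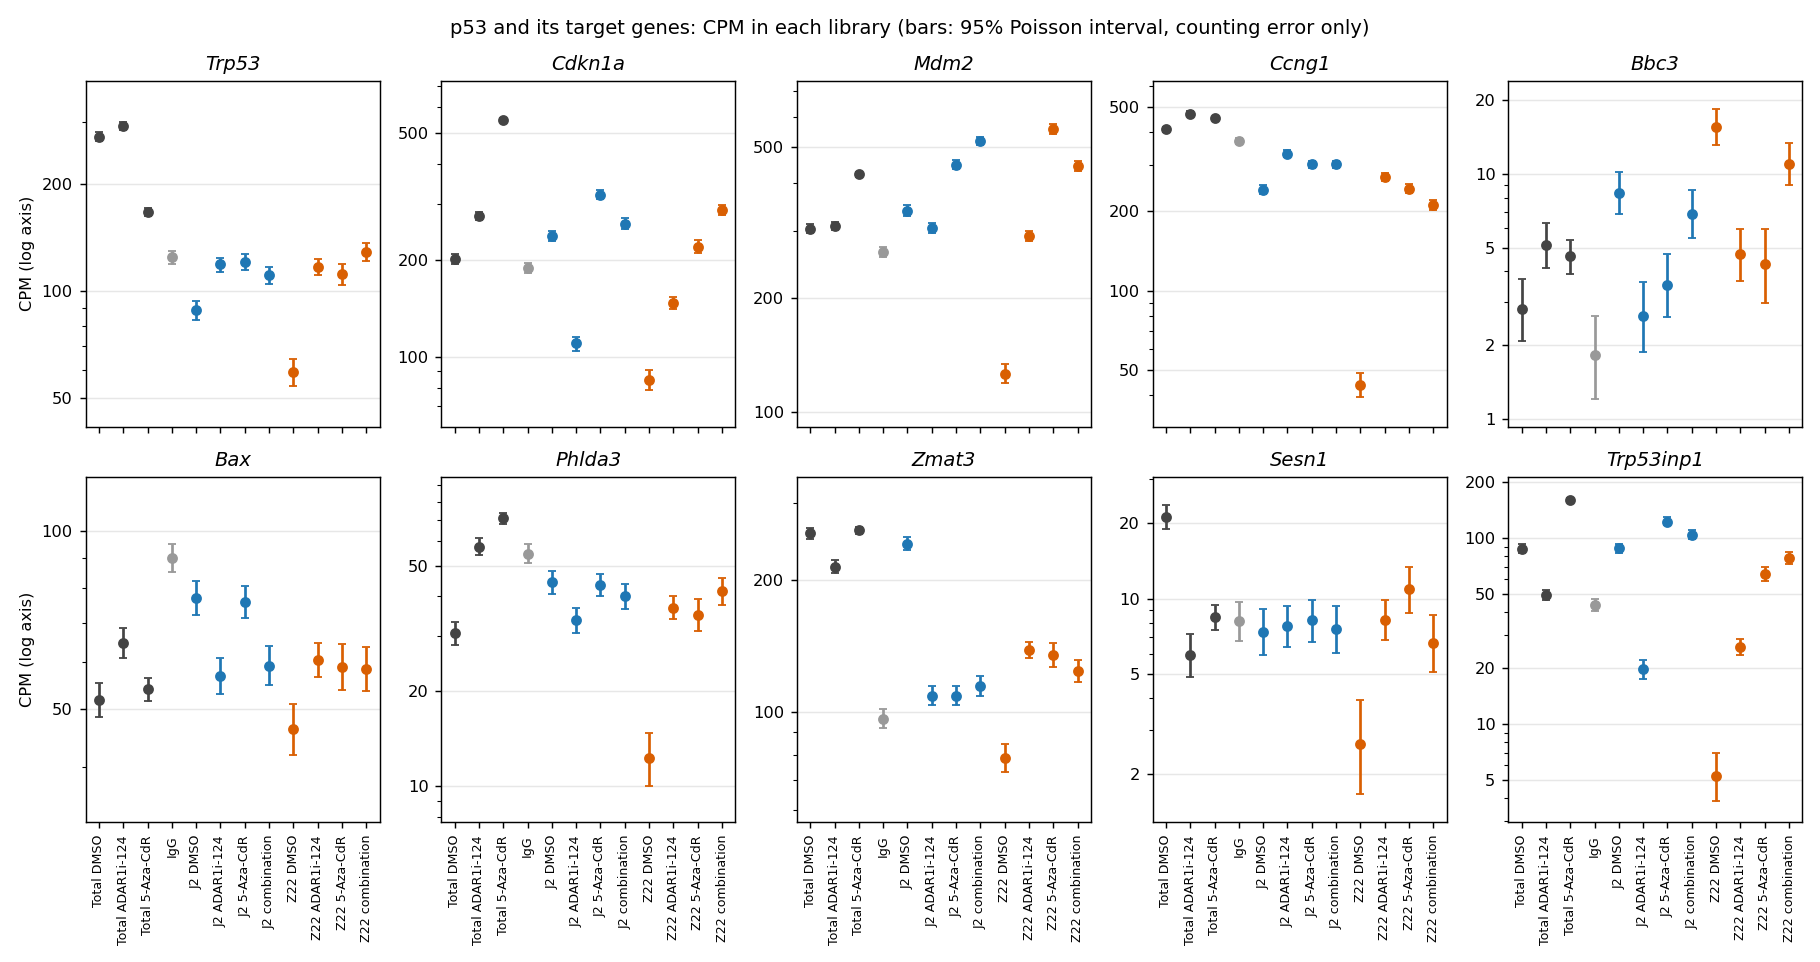
CPM of each of the 10 genes (vertical axes, log scale, 1 panel per gene) in the 12 libraries used (horizontal axes), with 95% Poisson intervals for counting error. The Z22 library labelled DMSO is the lowest of the 12 for 9 genes, all but Bbc3, which has its highest level there at 15.6 CPM.

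The Z22 library labelled DMSO was the lowest of all 12 libraries for 9 of the 10 genes, as it was for 53.8% of 13993 genes. Ccng1 stood at 43.8 CPM there and at 271, 244 and 211 CPM in the Z22 libraries for ADAR1i-124, 5-Aza-CdR and the combination. Trp53inp1 stood at 5.27 CPM (46 counts) there and at 25.9, 63.8 and 78.1 CPM in the others, the widest span of the 10 genes, with its highest library 30.3 times its lowest. Trp53 stood at 59.2 CPM, then 117, 112 and 129 CPM. The exception was Bbc3, which stood at 15.6 CPM (136 counts) in the Z22 library labelled DMSO, 4.71 CPM after ADAR1i-124, 4.29 CPM after 5-Aza-CdR and 11 CPM after the combination. By CPM, Bbc3 was the only one of the 10 genes with its highest Z22 level in the library labelled DMSO, but scalings that remove the shift of all genes turned the direction of Bax and Zmat3.

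Against that library, 5 of the 10 genes were higher past 2-fold and 1 lower in the Z22 library for ADAR1i-124. The background was 42.9% higher and 5.13% lower, and the median of all genes was shifted by 0.81, against 1.09 for the 10 genes. With Z22 and 5-Aza-CdR 6 were higher and 1 lower, where 52.1% of all genes were higher and 4.10% lower, with medians of 1.42 for the 10 genes and 1.06 for all genes. With Z22 and the combination 7 were higher and none lower, where 43.4% were higher and 5.03% lower, with medians of 1.46 and 0.82. The counts are to be read against this shift of the median of all genes. Relative to it, Ccng1 lay 1.80, 1.41 and 1.44 higher on the log2 scale in the Z22 libraries for ADAR1i-124, 5-Aza-CdR and the combination, and Trp53inp1 1.38, 2.42 and 2.95 higher. Bbc3 lay 2.44, 2.81 and 1.30 below the shift (log2 ratios minus the median of all genes of -2.44, -2.81 and -1.30). Under scalings that remove the shift, the direction turned for Cdkn1a with ADAR1i-124, for Trp53 with 5-Aza-CdR, for Bax and Zmat3 with all 3 treatments, and Phlda3 and Sesn1 with each treatment came inside the 2-fold line. So did Mdm2 with ADAR1i-124 and the combination, Cdkn1a with 5-Aza-CdR and the combination, and Trp53 with the combination. By DESeq2's size factors the genes past 2-fold were 2 higher and 1 lower with ADAR1i-124, 3 higher and 1 lower with 5-Aza-CdR, and 2 higher and 1 lower with the combination.

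With the IgG library as the reference, the Z22 libraries differed less. With ADAR1i-124 1 gene (Bbc3, log2 1.16, 0.71 to 2.05) was higher and none lower past 2-fold, beside 7.15% and 1.85% of all genes, and the median of the 10 was -0.23. With 5-Aza-CdR 2 (Mdm2 at 1.07 and Bbc3 at 1.04) were higher, beside 21.4% of all genes higher and 5.13% lower. With the combination 1 was higher (Bbc3 at 2.31, 1.98 to 3.25), beside 17.0% higher and 10.7% lower. The Z22 library labelled DMSO itself had 1 gene higher than IgG (Bbc3 at 2.79, 2.50 to 3.73) and 7 lower, beside 11.3% and 45.4% of all genes, with a median of -1.11 against -0.83. By DESeq2's size factors the 7 became 3.

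In the J2 libraries, Trp53inp1 gave the widest difference. It stood at 87.9 CPM in the library labelled DMSO, 19.7 CPM with ADAR1i-124, 122 CPM with 5-Aza-CdR and 104 CPM with the combination, and at 43.7 CPM in the IgG library. Cdkn1a followed the same order, at 238, 110, 320 and 260 CPM, with 189 CPM in the IgG library. For both genes the J2 library with ADAR1i-124 was the lowest J2 library and the only one below IgG. Zmat3 had another pattern, at 242 CPM in the library labelled DMSO and 109, 109 and 115 CPM in the other 3, beside 96.8 CPM in the IgG library. Mdm2 stood at 339, 305, 448 and 519 CPM, beside 264 CPM in the IgG library.

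Against the J2 library labelled DMSO, 4 genes were lower past 2-fold with ADAR1i-124 and none higher, beside 10.8% of all genes lower and 7.37% higher. They were Trp53inp1 (log2 -2.13, -2.35 to -1.97), Bbc3 (-1.50, -2.24 to -1.11), Zmat3 (-1.15, -1.24 to -1.06) and Cdkn1a (-1.11, -1.21 to -1.03), and the median of the 10 was -0.41 beside 0.00 over all genes. Over the same pair of libraries, 17 of the 18 cell cycle genes were higher past 2-fold, while none of the 18 was past 2-fold in either direction against IgG (median 0.14). With the IgG library as the reference, 1 of the 4 (Trp53inp1, at -1.13, -1.36 to -0.95) was lower past 2-fold, beside 4.46% of all genes lower and 5.63% higher.

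With 5-Aza-CdR, Bbc3 (-1.14) and Zmat3 (-1.14) were lower past 2-fold than in the J2 library labelled DMSO and none was higher, beside 6% lower and 8.61% higher over all genes. With the combination Zmat3 alone was lower (-1.07), beside 3.88% lower and 8.21% higher. Against IgG in place of the library labelled DMSO, Trp53inp1 was higher past 2-fold with 5-Aza-CdR (1.48, 1.36 to 1.62), beside 13% of all genes higher and 5.57% lower. With the combination Bbc3 (1.67, 1.28 to 2.59) and Trp53inp1 (1.25, 1.12 to 1.39) were higher, beside 17.9% higher and 7.98% lower. No gene of the 10 was lower past 2-fold than IgG with either. The J2 library labelled DMSO had 3 genes higher than IgG and none lower, Bbc3 at 1.93 (1.58 to 2.85), Zmat3 at 1.32 (1.23 to 1.42) and Trp53inp1 at the 2-fold line (0.87 to 1.15), beside 13.5% and 8.97% of all genes.

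The remaining genes varied less between the precipitates other than the Z22 library labelled DMSO. Phlda3 stood at 44.3, 33.6, 43.5 and 40.0 CPM with J2 after DMSO, then ADAR1i-124, then 5-Aza-CdR, then both compounds, and at 12.3, 36.9, 34.9 and 41.5 CPM with Z22 in the same order. Bax stood at 77.1, 56.9, 75.9 and 59.2 CPM with J2 and at 46.3, 60.5, 59.0 and 58.5 CPM with Z22. Both genes therefore stayed within a narrow band once that library was set aside. Sesn1 stood at 7.39, 7.78, 8.20 and 7.56 CPM with J2, beside 8.16 CPM with IgG, all on 89 to 125 counts. None of the 4 J2 libraries differed from IgG beyond counting error for Sesn1, nor did any reach the 21.2 CPM of total RNA with DMSO.

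The other p53 targets were read in the precipitates over the same pairs. Against the J2 library labelled DMSO, 2 of 39 were higher and 9 lower past 2-fold with ADAR1i-124, beside 7.37% and 10.8% of all genes, with a median of -0.64 beside 0.00 over all genes. Against IgG the same J2 library had 0 of 38 higher and 2 lower, beside 5.63% and 4.46%, with a median of -0.09. Between the combination and ADAR1i-124 alone, 15 of 41 were higher and none lower with J2, beside 14.3% and 5.64% of all genes, with a median of 0.54 beside 0.11. With Z22, 9 of 41 were higher and none lower, beside 9.91% and 6.30%, with a median of 0.24 beside 0.00. Trp53inp1 and Bbc3 were higher past 2-fold in both of these comparisons, as 8.54% of all genes were. The comparisons share no library but contrast the same treatments. Whether the J2 and Z22 libraries came from the same cultures is not given in the sources used here, so the comparisons are not shown to be independent.

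Of the 10 genes, 1 lay above the IgG library and 3 below it in every precipitate, beside 14.1% and 18.3% of 13822 genes. Bbc3 was above its IgG level of 1.83 CPM (28 counts) in 8 of 8 precipitated libraries, from 2.64 CPM in J2 with ADAR1i-124 to 15.6 CPM in the Z22 library labelled DMSO, and was higher with Z22 than with J2 in 4 of 4 treatments. The J2 library with ADAR1i-124 did not differ from IgG beyond counting error for Bbc3 (log2 0.43, -0.21 to 1.29). Ccng1, Bax and Phlda3 were below their IgG levels of 371, 89.9 and 54.7 CPM in 8 of 8 precipitated libraries. Ccng1 was also lower with Z22 than with J2 in 4 of 4 treatments. Of all genes, 11.7% were higher and 19.7% lower with Z22 in every treatment, so each of these counts lay near the background. Mdm2 was above its IgG level in 7 of 8 libraries and below it in the Z22 library labelled DMSO. The treatments are not replicates of an antibody, all 8 comparisons share 1 IgG library, and no test was made.

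**Figure D4:**
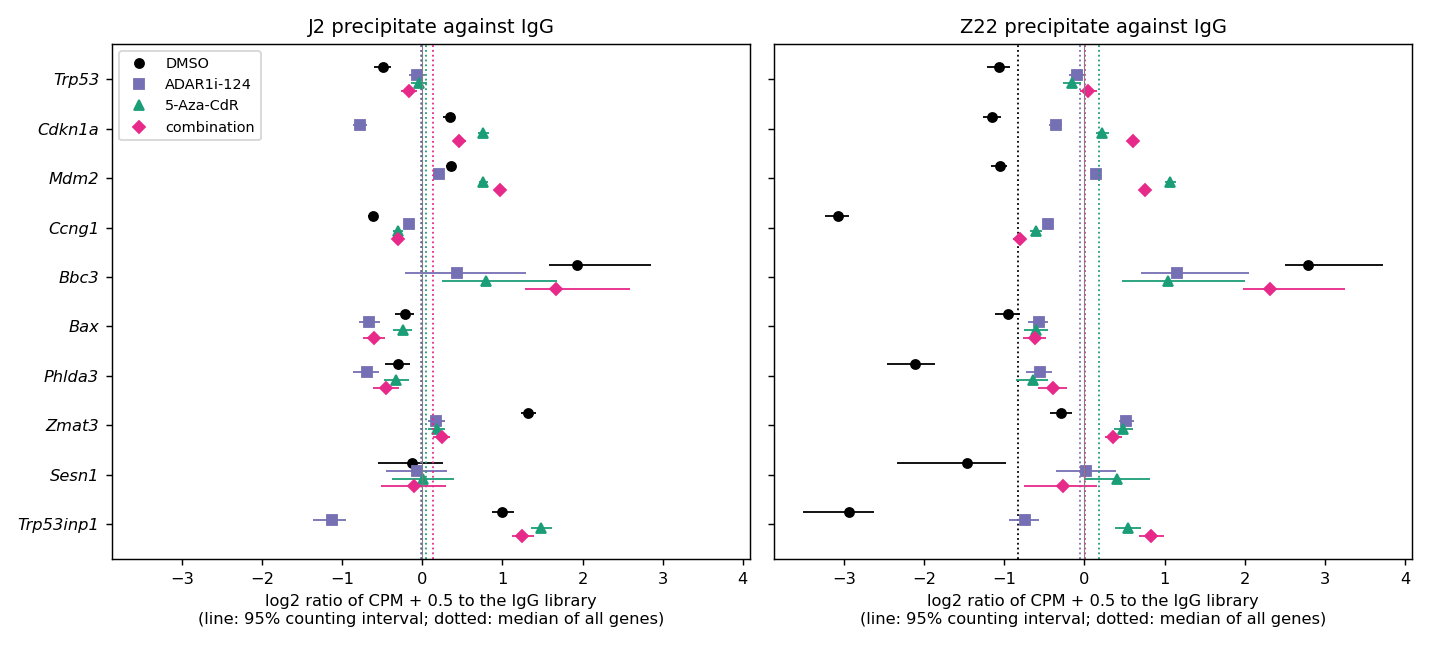
Log2 ratio of CPM + 0.5 in a precipitate over that with IgG (horizontal axes) for the 10 genes (vertical axes), with J2 libraries in one panel and Z22 libraries in the other, treatments by colour, lines for 95% counting intervals and dotted lines for the median of all genes. Bbc3 lies right of 0 in all 8 libraries, and Ccng1, Bax and Phlda3 lie left of 0 in all 8, with Ccng1 at -3.07 in the Z22 library labelled DMSO.

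The combination was compared with each compound alone in the precipitates. With J2, none of the 10 genes was past 2-fold between the combination and 5-Aza-CdR, where 1.44% of all genes were higher and 0.641% lower. Against ADAR1i-124 alone, 3 genes were higher with J2, Trp53inp1 (2.38, 2.22 to 2.60), Cdkn1a (1.24, 1.16 to 1.33) and Bbc3 (1.23, 0.81 to 1.98), where 14.3% of all genes were higher and 5.64% lower. With Z22, Bbc3 alone was higher with the combination than with 5-Aza-CdR (1.27, 0.80 to 1.96), beside 2.28% of all genes higher and 7.11% lower. Also with Z22, Trp53inp1 (1.57, 1.41 to 1.77) and Bbc3 (1.15, 0.77 to 1.69) were higher than with ADAR1i-124, beside 9.91% higher and 6.30% lower. Cdkn1a was 0.97 higher (0.89 to 1.05) in that last comparison, just inside the 2-fold line. Bbc3 was the gene past 2-fold in 3 of these 4 comparisons, on 35 to 101 counts per library.

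Between ADAR1i-124 and 5-Aza-CdR, 4 of the 10 genes (Cdkn1a, Mdm2, Sesn1 and Trp53inp1) were higher with 5-Aza-CdR in all 3 kinds of RNA and 1 (Ccng1) was lower in all 3, beside 34.2% and 20.6% of 14216 genes. These counts lay near the background. Trp53inp1 stood at 49.4 CPM with ADAR1i-124 and 160 CPM with 5-Aza-CdR in total RNA, 19.7 and 122 CPM with J2, and 25.9 and 63.8 CPM with Z22. Cdkn1a stood at 274 and 549 CPM in total RNA, 110 and 320 CPM with J2, and 147 and 220 CPM with Z22. Mdm2 stood at 309 and 423 CPM in total RNA, 305 and 448 CPM with J2, and 291 and 556 CPM with Z22. The levels of Sesn1 lay closer together, at 5.96 and 8.42 CPM in total RNA, 7.78 and 8.20 CPM with J2, and 8.25 and 10.9 CPM with Z22, and those with J2 had overlapping counting intervals. Ccng1 stood at 471 and 452 CPM, 331 and 302 CPM, and 271 and 244 CPM in the same order. Trp53 ran the other way in total RNA (292 and 167 CPM) and was close in both precipitates (119 and 121 CPM with J2, 117 and 112 CPM with Z22).

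The genes whose centred log2 levels over the 12 libraries lay closest to those of Trp53, among 8888 genes averaging 10 CPM or more, were Mrps2, Dyrk1a, Abhd17c, Rprd1b and Sec24d, with mean absolute differences of 0.109 to 0.153, where the median gene had 0.467. Among the 5 closest to Cdkn1a were Atg13, Prickle2, Glb1 and Glmp, at 0.159 to 0.196, where the median gene had 0.574. None of the other 9 genes was among the 5 closest to Trp53 or to Cdkn1a.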

How the data were processed

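The authors mapped paired reads of 150 bases with STAR 2.7.10b in snakePipes 2.8.0 to mouse GRCm38 with GENCODE release 19, and deposited raw counts per gene, not normalized. The counting tool and its strand setting are not given in the sources used here. Identifiers were matched to GENCODE M21, leaving 37 of 54532 without a symbol. The members and gene lists were chosen with earlier results of these data known.

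From the deposited counts, CPM were computed on the table total, 0.5 CPM was added before log2, and genes averaging 1 CPM or more over both libraries of a comparison were described. Each condition has 1 library, so no test was made. Intervals are 95% Clopper-Pearson or Poisson. The floor of detection was 3 counts. Fold calculations were tested on simulated data for ADAR1i-124 against DMSO in total RNA: 200 of 200 genes changed 4-fold were past 2-fold, as were 2 of 13362 unchanged genes. The simulated counts held counting error only, with no variation between cultures or libraries, and the changed genes were drawn from those at 10 CPM or more. The result checks the calculation and gives no rate of false calls for the real libraries.

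The named genes are the 10 members, the genes of each list past 2-fold in total RNA (at most 8 per list and comparison), the known altered genes of the line, the targets of the compounds and the 5 genes closest to Trp53 and Cdkn1a. Alternatives were edgeR's TMM and DESeq2's size factors, totals without the 20 top genes, a 4-fold line, pseudocounts of 0.1 and 2 CPM, a 10 CPM filter or none and, added after seeing the data, IgG as reference. R 4.3.3, edgeR 4.0.16, DESeq2 1.42.0, Python 3.11.15, numpy 2.4.6, pandas 2.3.3, scipy 1.17.1 and matplotlib 3.10.9 were used. The combination library of total RNA was left out of comparisons. Some genes that the rule names are not reported here.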

Additional observations from a re-analysis of the deposited data

Results flagged for a closer look

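Trp53inp1 had opposite signs in the precipitates with ADAR1i-124 against the library labelled DMSO, with a log2 ratio of -2.13 with J2 and 2.19 with Z22. Sesn1 had opposite signs in total RNA and in Z22 precipitates, at -1.75 and 1.48 with ADAR1i-124 and at -1.28 and 1.86 with 5-Aza-CdR. These differences were not tested, and the median of all genes was 0.81 and 1.06 in the Z22 comparisons. Relative to those medians, Trp53inp1 was higher with Z22 by 1.38, and Sesn1 by 0.67 and 0.80. All of these Z22 ratios rest on the Z22 library labelled DMSO, which stands apart. Against IgG, Trp53inp1 with ADAR1i-124 was lower in both precipitates, at -1.13 (-1.36 to -0.95) with J2 and -0.74 (-0.94 to -0.57) with Z22. Sesn1 with Z22 lay at 0.02 (-0.36 to 0.39) after ADAR1i-124 and 0.40 (0.01 to 0.82) after 5-Aza-CdR against IgG, so the opposite sign of Trp53inp1 was not seen with that reference and that of Sesn1 with ADAR1i-124 was within counting error.

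Bbc3 had 16.1 CPM (20 counts) in the total RNA library of the combination, which was left out of the comparisons, beside 2.82 CPM in the DMSO library. The counts of that library follow the other strand.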

How the results depend on the processing

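No paired analysis was made, since each condition has 1 library and the treatments over which J2 and Z22 were set side by side are not replicates. No library could be left out in turn for the same reason. Of the values that answer a comparison, 151 stayed near their value over the alternatives (a count within 1.5 times, a median within the spread of the genes), 36 moved and 1 reversed. By this rule a count could be scored only as near or moved, and the spread of the genes left a median wide room. The tally therefore says little about single genes. The signs of Bax and Zmat3, for example, turned under other scalings in each Z22 comparison of a treatment with DMSO. At a 4-fold line, the genes past it were 0 lower with ADAR1i-124 and 0 higher and 0 lower with 5-Aza-CdR in total RNA. They were 1 lower in J2 with ADAR1i-124, 0 lower with 5-Aza-CdR and with the combination, and 0 higher in the J2 library labelled DMSO against IgG. In Z22 they were 2 higher and 0 lower with ADAR1i-124, 3 and 0 with 5-Aza-CdR, 2 higher with the combination, and 3 lower in the library labelled DMSO against IgG. With a pseudocount of 2 CPM, 1 gene was lower in J2 with 5-Aza-CdR. With TMM scaling, 2 genes were higher in Z22 with ADAR1i-124, 1 was lower with the combination, and 3 were lower in Z22 labelled DMSO against IgG. With DESeq2 size factors, Z22 had 2 higher and a median of 0.23 with ADAR1i-124, 3 higher with 5-Aza-CdR, 2 higher and 1 lower with the combination, and 3 lower for DMSO against IgG, a count of 4 without the 20 top genes. These scalings move the shift shared by all genes by construction. With IgG as the reference, J2 had 1 lower with ADAR1i-124, 1 higher and 0 lower with 5-Aza-CdR, and 2 higher and 0 lower with the combination. Z22 then had 1, 2 and 1 genes higher with ADAR1i-124, 5-Aza-CdR and the combination, and 0 lower with either single compound. The medians were -0.23 (scored as reversed, though IgG also changes the antibody), 0.31 and 0.21 in the same order. The cause was not tested. With no filter on low genes, the share of all genes past 2-fold was 4.65% to 17.3%, because genes without counts enter it. With a 10 CPM filter it was 9.10% in place of 14.6% in J2 with 5-Aza-CdR and 7.22% in place of 12.1% with the combination. Depth was least for Sesn1, at 23 to 360 counts per library used, and Bbc3, at 28 to 159.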
